A study of Rattus norvegicus with 10 samples.

Results

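Introns after the first one of a gene were represented by 350 of the 8957 regions in a table of DNA methylation from the hypothalamic arcuate nucleus of rat offspring. The members are the regions on numbered chromosomes that the file annotates to intron 2 or a later intron of a transcript. The choice used only this annotation, not the methylation values. They lay in 292 introns of 278 transcripts and carried 275 gene names, and each of the 20 autosomes held between 2 and 36 of them.

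The offspring with high-fat-fed fathers (paternal HF, 5 animals) were compared with the offspring of chow-fed fathers (paternal C, 5 animals). The fathers were Wistar males, mated on postnatal day 90 to 100 with chow-fed females. Litters were cut on day 2 to at most 8 pups. All 10 offspring, the paternal C ones included, were switched to a high-fat diet on postnatal day 35 and killed on day 70, so no offspring on chow throughout is among them. The labels give neither sire nor litter nor sex. The column names 22HFB and 22HFR in paternal HF, and 6HFBB and 6HFB in paternal C, share a leading number whose meaning is not given. Whether these pairs are litter mates, which would leave fewer than 5 independent animals per group, is therefore unknown, and p-values therefore measure the spread between these samples only. Because all cell types of the dissected tissue were read together, a shift in cell makeup and a shift within cells cannot be told apart.

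In mammals the body of a gene, introns included, is usually methylated, while the CpG-rich stretch around a start site is usually not. The gene-body pattern is laid down by the DNA methyltransferases, which are drawn to chromatin marked during transcription, and introns can also hold enhancers, internal promoters and small RNA genes. The assay, reduced representation bisulfite sequencing, reads only CpG-rich restriction fragments, so the regions are the CpG-rich pieces of introns and not introns as a whole. Each region held 10 to 36 CpGs in a median of 77.5 bases. All had been called by the authors' software, metilene, by comparing these same animals, so a test on them is not independent evidence. The sequencing depth behind a level is unknown, so counting error could not be stated.

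A region's gene name is that of the nearest start site, which in an intron need not be the gene whose intron it is. The transcript holding the intron had a gene name elsewhere in the file for 258 regions. That gene was the named one for 216 of them and another gene for 42. For the other 92 the file gave no name for the transcript. The region named for Dnmt3a, a DNA methyltransferase gene, shows the difference: it lay in intron 11 of 19 of a transcript of Dtnb, which encodes a dystrophin-associated protein, at −108814 bases from the Dnmt3a start. The nearest start was that of a protein-coding gene at 292 regions and of a small RNA at 42, of which 17 were microRNA genes.

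Of the 11 microRNA names among these nearest starts, 4 had a mature sequence. Their mature sequences show which small RNAs the later-intron regions are named for. The intronic bases themselves are not shown, as no genome of the file's build was used here. The sequences are RefSeq's on build GRCr8, with the seed (bases 2 to 8) in capitals, and their GRCr8 positions are not comparable with the file's coordinates.
rno-miR-10b-5p (chr3:80035886-80035907, plus strand): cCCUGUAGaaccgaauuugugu
rno-miR-153-3p (chr6:144306646-144306667, plus strand): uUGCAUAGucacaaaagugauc
rno-miR-339-5p (chr12:20391410-20391432, plus strand): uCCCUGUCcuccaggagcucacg
rno-miR-671 (chr4:11473205-11473225, minus strand): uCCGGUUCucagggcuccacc
No 2 of these seeds were the same. The region named for Mir10b lay in the last intron (5 of 5) of a Hoxd4 transcript, 1668 bases from the microRNA's start, and was nearly unmethylated in both groups, at 3.29% ± 1.14 in paternal HF and 1.94% ± 1.35 in paternal C offspring (SD, n = 5 each). Both regions named for Mir153 lay in intron 12 of 22 of Ptprn2, a gene of secretory vesicles, at −102213 and −95836 bases from the microRNA's start. They differed in direction, by −1.19 points (−0.148 points without 4HFB) and 1.47 points. The Mir339 region averaged 3.68% ± 2.25 against 1.55% ± 0.940 (SD, n = 5 each).

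Later introns covered a wide range of levels. The level of a region, taken as the mean of both group means, ran from 0.816% to 97.5%, with a median of 4.46% and quartiles at 2.14% and 21.2%. First-intron regions (1333) had a median of 2.19%, regions in exons after the first (610) one of 6.18%, and all regions one of 2.27%. A level of 20% to 80% was found at 21.1% of later-intron regions, 21.3% of later-exon regions and 2.33% of first-intron regions, and 5.43% of later-intron regions lay above 80%. Later-intron regions were also far from start sites, at a median of 7652 bases, against 407 bases for first-intron regions, and 39 of the 350 lay within 1000 bases of one. These are descriptions of the authors' selection of regions and were not tested.

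**Figure D1:**
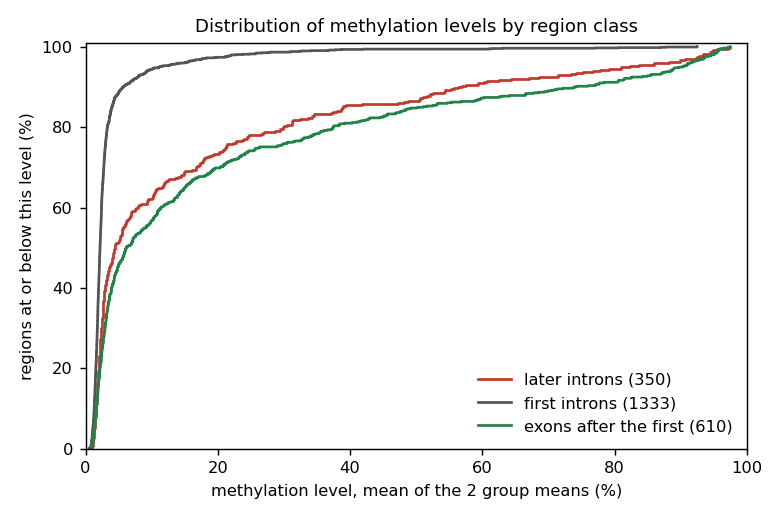
Cumulative share of regions (y axis, %) at or below each methylation level (x axis, %, mean of the group means) for regions of later introns, first introns and exons after the first. The later-intron curve runs close to that of later exons: 51.4% of later-intron regions and 45.7% of later-exon regions lie at up to 5%, against 88.4% of first-intron regions.

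Within the later introns the level went with position. The median level was 3.11% in intron 2 (141 regions), 3.22% in intron 3, 9.23% in introns 4 to 6, 8.52% in introns 7 to 12 and 13.3% in intron 13 or beyond (36 regions). With distance from the nearest start site the median was 2.24% up to 1000 bases, 3.75% at 1000 to 5000, 7.48% at 5000 to 20000 and 10.4% beyond that. None of the 39 regions within 1000 bases exceeded 20%, while 39 of the 109 beyond 20000 bases did. Across the 350 regions Spearman's rank correlation with the level was 0.255 for distance, 0.245 for intron number and −0.279 for CpGs per base. The regions share the same 10 animals and these measures go together, so the values are given as a description.

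**Figure D2:**
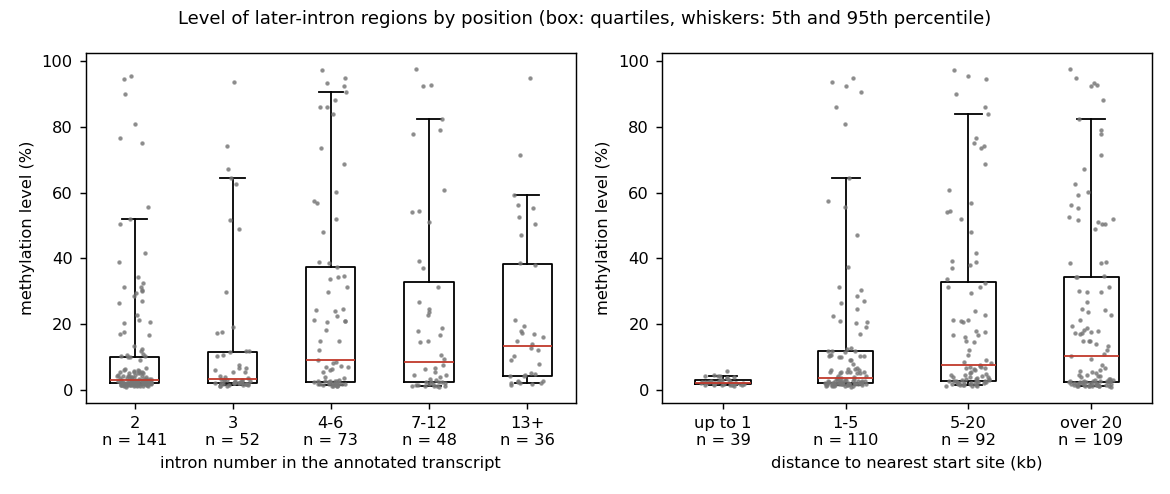
Methylation level (y axes, %) of each later-intron region by intron number (left) and by distance to the nearest start site in kilobases (right), with boxes at the quartiles and whiskers at the 5th and 95th percentiles. Regions within 1 kilobase of a start site all lie below 20%, and the box reaches higher from intron 4 on.

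The question of the comparison was whether the father's diet left a difference in the offspring. Averaged over the 350 regions, the level of the paternal HF animals was 17.4%, 17.7%, 18.5%, 18.8% and 19.8%, and that of the paternal C animals 15.7%, 16.3%, 16.5%, 16.5% and 16.9%. Each paternal HF animal thus lay above each paternal C animal, and the animal named 22HFR stood highest. The group means were 18.4% ± 0.940 and 16.4% ± 0.430 (SD, n = 5 each), a difference of 2.07 points, and without 22HFR it was 1.74 points. The same difference was 0.897 points in first introns, 1.80 points in later exons and 1.10 points over all regions. As a ratio of the group means it was 1.127 in later introns, 1.267 in first introns, 1.09 in later exons and 1.18 over all regions. The groups were also apart over all regions (lowest paternal HF animal 6.481%, highest paternal C animal 6.458%) and in later exons (21.0% and 20.2%). In first introns they met at 3.66% and 3.661%. Over the 350 later-intron regions the median level per animal was 5.60% ± 0.974 in paternal HF and 4.42% ± 0.217 in paternal C offspring (SD, n = 5 each). Such averages carry no p, since metilene called the regions on these very groups.

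Of the 350 regions, 258 (73.7%) had a higher mean in paternal HF and 92 a lower one, beside a background of 71.0% higher over all regions. First introns had 71.3% higher and later exons 72.8%, so the share was near the background. The size of the differences was close to that in later exons and above that in first introns, with a median absolute difference of 2.22 points in later introns, 2.44 points in later exons and 1.63 points in first introns. At 67 regions (19.1%) the absolute difference reached 5 points, beside 6.59% of all regions, 20.2% of later-exon and 2.63% of first-intron regions, and 60 of the 67 were higher in paternal HF. At 9 regions (2.57%) it reached 10 points, beside 0.670% of all regions and 3.11% of later-exon regions, and all 9 were higher in paternal HF. The direction of differences of these sizes in the other classes is not given here. Neither count of higher regions can therefore be called particular to later introns. Levels in the middle of the scale, which are frequent in later introns, also spread more between animals: the median SD within paternal HF was 5.84 points at 20% to 80% and 1.58 points at up to 5%. Within a band of level the classes were closer in size. At up to 5% the median absolute difference was 1.59 points in later introns, 1.56 points in first introns and 1.58 points over all regions. At 5% to 20% these were 3.11, 2.77 and 2.98 points, and at 20% to 80% they were 5.8, 5.7 and 5.7 points.

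The direction varied with the level of methylation. Of the 180 later-intron regions at up to 5%, 130 were higher in paternal HF (72.2%, background 70.1%), and of the 77 at 5% to 20%, 55 were (71.4%, background 73.9%). At intermediate levels of 20% to 80%, 68 of 74 were higher (91.9%), beside 80.1% of all regions in that range, 74.2% of 31 first-intron regions and 73.8% of 130 later-exon regions. These 74 regions made up 58.1% of the summed difference of all 350. Their mean per animal was 42.6%, 42.9%, 45.6%, 46.9% and 47.3% in paternal HF and 37.4%, 38.2%, 39.6%, 40.2% and 41.4% in paternal C offspring, again without overlap. At this level the groups were also apart over all regions (lowest paternal HF animal 37.4%, highest paternal C animal 36.8%) and in later exons (42.7% and 41.4%). In first introns they overlapped (31.6% and 34.6%). Above 80% the direction in later introns was the other way, with 5 of 19 higher and 14 lower (26.3% higher, background 56.5%). The per-animal means there ran from 89.0% to 91.8% in paternal HF and from 88.6% to 92.7% in paternal C, and so overlapped. Neither contrast with the other region classes was tested.

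**Figure D3:**
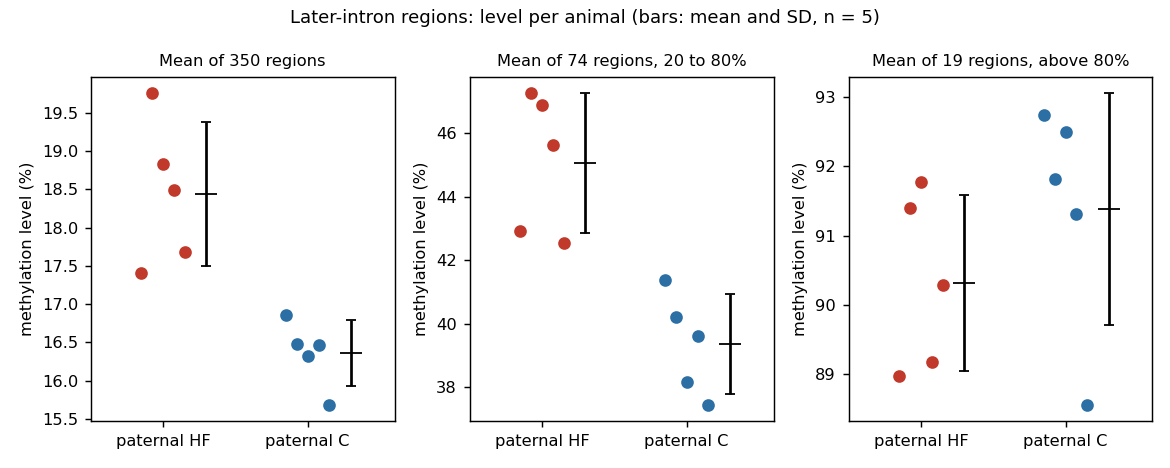
Mean methylation level (y axes, %) of each animal over all 350 later-intron regions, over the 74 at 20% to 80% and over the 19 above 80%, for paternal HF and paternal C offspring; bars give the mean and SD of 5 animals. The groups are apart in the first and second panels, where the lowest paternal HF values are 17.4% and 42.6%, and overlap in the third.

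**Figure D4:**
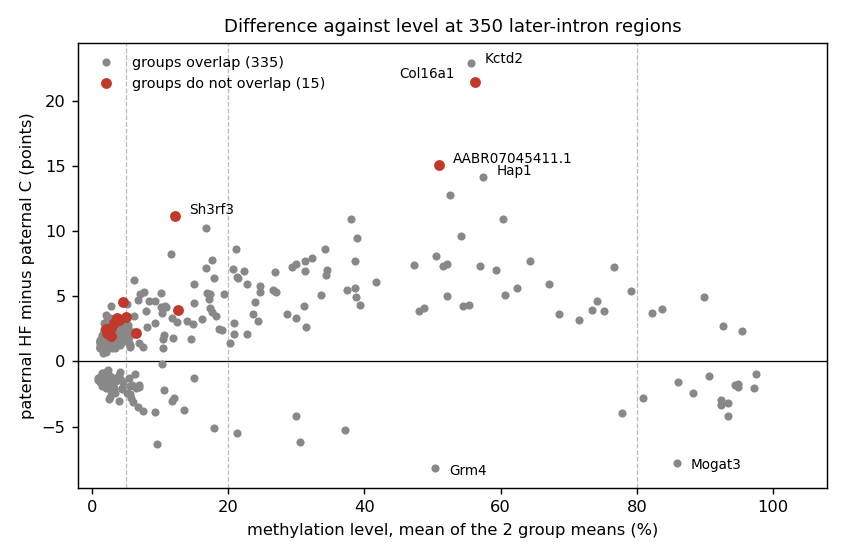
Difference in level (y axis, paternal HF minus paternal C, percentage points) against level (x axis, %) at each of the 350 later-intron regions, with dashed lines at 5%, 20% and 80%. The regions whose groups do not overlap all lie above 0, and the points above 80% lie mostly below it.

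Fitted with limma over the whole table, 0 of 350 later-intron regions had a Benjamini-Hochberg adjusted p below 0.05, beside 0.00% of all regions, with 0.235 as the smallest value. An unadjusted limma p below 0.05 was found at 71 regions (20.3%), beside 20.9% of all regions, 59 higher and 12 lower in paternal HF. The groups did not overlap at 15 regions (4.29%), beside 5.15% of all regions, and all 15 were higher in paternal HF, where 3.93% of all regions were separate and higher and 1.22% separate and lower. In the authors' deposited table, 2 of the 350 (0.571%) had a q below 0.05, beside 0.848% of all regions. In each of these counts the share was near the background. A deposited q below 1 was found at 7 of the 350, and the share over all regions at that limit is not given here.

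Those 2 were introns of Col16a1 and Sh3rf3. Col16a1 encodes a fibril-associated collagen of the extracellular matrix, and its region of 10 CpGs lay in intron 42 of 70 on chromosome 5, 148286680 to 148286776. The levels were 57.6%, 61.9%, 68.9%, 73.0% and 73.7% in paternal HF and 42.0%, 42.6%, 44.0%, 44.4% and 54.6% in paternal C offspring. The groups did not overlap, though paternal C animal 6HFB at 54.6% came close. The difference was 21.5 points (q = 0.0400 in the authors' deposited table, limma adjusted p = 0.235, two-sided exact permutation p = 0.00794, the smallest that 5 against 5 allows).

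Sh3rf3 encodes a RING-type ubiquitin ligase with SH3 domains. Its region of 10 CpGs, in intron 6 of 8 on chromosome 20 (28671542 to 28671615), lay 99337 bases from the start site. The levels were 11.2%, 12.8%, 16.45%, 18.8% and 29.7% in paternal HF and 4.73%, 5.82%, 6.78%, 7.35% and 8.57% in paternal C offspring. Animal 24HFB was the highest at 29.7%, and the groups did not overlap. The q in the authors' deposited table was 0.0131.

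The largest difference belonged to Kctd2, which encodes a BTB-domain protein. Its region held 18 CpGs in intron 2 of 5 (chromosome 10, 103975099 to 103975250) and, like Hap1, Dffa, Tceanc2, Rps6ka4 and AABR07065276.1, was chosen after the values were seen, for a difference of at least 10 points. Its levels were 49.1%, 58.8%, 61.2%, 82.6% and 84.1% in paternal HF and 38.55%, 42.1%, 43.1%, 44.9% and 52.6% in paternal C offspring. The difference was 22.9 points, and the lowest paternal HF animal lay below the highest paternal C one (q = 0.0863 in the authors' deposited table, limma adjusted p = 0.235, exact permutation p = 0.0159). Intron 6 of 10 of Hap1, whose huntingtin-associated protein takes part in transport within neurons, averaged 64.5% ± 4.97 against 50.4% ± 11.3 (SD, n = 5 each). There 4 paternal C animals lay at 43.3% to 49.1% and 4HFB at 70.2%, within the paternal HF range of 58.5% to 71.7%.

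Intron 23 of 26 of Kif1b, a kinesin gene of axonal transport, held a region that the file names for Dffa, which encodes an inhibitor of an apoptotic nuclease. It averaged 58.9% ± 5.75 in paternal HF and 46.2% ± 6.22 in paternal C offspring (SD, n = 5 each). The last intron of Tceanc2 averaged 65.8% ± 6.71 against 54.8% ± 5.54, and the last intron of Rps6ka4, a gene of a kinase that acts on chromatin, 43.4% ± 7.54 against 32.5% ± 7.56 (SD, n = 5 each). An intron of the noncoding gene AABR07065276.1 averaged 21.9% ± 10.3 against 11.6% ± 3.38 (SD, n = 5 each). Each of these 4 had overlapping groups. The gene name AABR07045411.1, a protein-coding entry without a symbol in the file, stood for a region in intron 12 of 17 of an unnamed transcript on chromosome 20 (46786212 to 46786435). Its levels of 50.02% to 64.98% in paternal HF lay above those of 38.2% to 47.3% in paternal C offspring, by 15.04 points on average (limma adjusted p = 0.235).

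**Figure D5:**
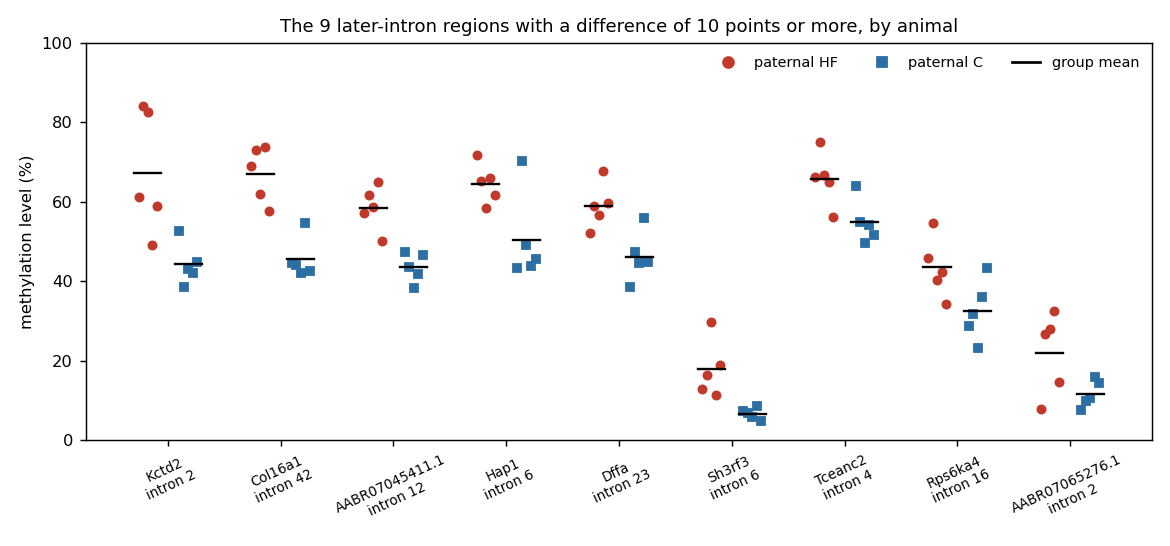
Methylation level (y axis, %) of each animal at the 9 later-intron regions with a difference of at least 10 points, named on the x axis by nearest gene and intron number, with paternal HF circles left of paternal C squares and bars at the group means. The groups are apart at Col16a1, AABR07045411.1 and Sh3rf3 and overlap at the other 6.

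The other 12 regions without overlap between groups mostly had low levels. Intron 13 of 20 of Ubtf, which encodes a transcription factor of ribosomal RNA genes, had 5.08%, 5.19%, 5.39%, 8.48% and 9.74% in paternal HF and 1.595%, 1.92%, 1.92%, 2.84% and 2.90% in paternal C offspring. The region named for Bub3, a mitotic checkpoint gene, lay in the last intron of an unnamed transcript and averaged 5.55% ± 1.61 against 2.34% ± 0.395 (SD, n = 5 each). An intron of B3gnt5, a glycosphingolipid synthesis gene, averaged 5.36% ± 1.72 against 2.03% ± 1.3 (SD, n = 5 each).

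In 2 of the 12 the file placed the intron in another gene than the named one. Intron 17 of 19 of Obsl1, which encodes a cytoskeletal adaptor, carried the region named for Tmem198, at 6.62% ± 1.10 against 3.23% ± 0.768. Intron 14 of 16 of Ssbp4 carried the region named for Isyna1, the inositol synthase gene, at 14.6% ± 3.02 against 10.7% ± 0.567 (SD, n = 5 each). Intron 3 of 5 of Isl2, a LIM-homeobox gene, averaged 4.66% ± 0.878 against 1.68% ± 1.06, and intron 4 of 5 of Mnt, which encodes a MAX-binding repressor, 4.10% ± 0.806 against 1.56% ± 1.04 (SD, n = 5 each). The remaining 5 were named for Get1, Mir671, Ppard, AABR07031184.1 and AABR07044359.1 and differed by 1.91 to 2.46 points. At Ppard, a nuclear receptor gene of lipid metabolism whose start lies 11735 bases away, the groups were apart by the narrow gap between 5.94% and 5.65%, and the difference of 2.21 points was 1.19 points without 28HFB. The Ppard-named region that ends where this one begins, from 7806084 in intron 8 of 10, went the other way and differed by −2.395 points. Neighbours in the same intron differed by 3.46 points at Isl2, 6.40 points at Get1, 1.24 points at Mir671 and −1.24 points at Mnt.

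Among the 92 regions lower in paternal HF, 7 reached 5 points, and at none were the groups apart. The largest was in intron 2 of 4 of an unnamed transcript at −26646 bases from Grm4, the metabotropic glutamate receptor 4 gene, with 46.4% ± 7.59 against 54.5% ± 8.98 (SD, n = 5 each). Intron 4 of 5 of Mogat3, an acyltransferase gene of triglyceride synthesis, averaged 82.0% ± 6.77 against 89.8% ± 1.67 (SD, n = 5 each). Leaving out 22HFB, the paternal HF animal at 70.9%, moved the gap of −7.83 points to −5.06 points. The last intron of the vomeronasal receptor gene Vom2r71 had 2.75% to 11.5% in paternal HF and 11% to 14.5% in paternal C offspring. The others were named for B3gnt2, Myog, Ttc21a and a U6 copy, and differed by −6.19 to −5.08 points. Leaving out 1 animal moved B3gnt2 to −3.66 points (22HFB), Myog to −3.62 points (6HFB), Ttc21a to −2.77 points (24HFB) and the U6 copy to −3.14 points (2HFB). The Grm4 difference of −8.15 points was −5.12 points without 6HFBB. Neighbours in the same intron differed by 4.27 points at B3gnt2, 1.06 points at the U6 copy and −2.85 points at Myog.

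Lists of genes were set beside the later-intron regions by the name the file gives. Glutamate, GABA and postsynaptic scaffold genes (54) had 6 regions at 4 genes, 4 higher and 2 lower, with a median difference of 5.17 points at a median level of 24.5%. The median difference was 5.63 points over later-intron regions at 20% to 80%. It was 1.41 points over all regions and 1.45 points over all 54 regions of this list, in any part of a gene. Grm4 had 3 of them, all at 38.9% to 52.1% methylation. The region at 6709639 on chromosome 20 averaged 43.7% ± 8.93 against 34.1% ± 4.54, the one at 6762630 averaged 55.8% ± 6.12 against 48.3% ± 6.34 (SD, n = 5 each), and the third is the lower one above. Intron 2 of 14 of Grin2c, an NMDA receptor subunit gene, averaged 12.8% ± 3.65 against 7.55% ± 2.39. Intron 6 of 10 of Shank3, a postsynaptic scaffold gene, averaged 9.63% ± 5.31 against 4.49% ± 1.38 (SD, n = 5 each). Leaving out 22HFB moved this gap of 5.14 points to 2.94 points. None of the 6 passed limma.

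Developmental transcription factor genes (79) had the most regions of any list, 18 at 14 genes, 13 higher and 5 lower, with a median difference of 1.76 points. Intron 6 of 12 of Meis1, a homeobox cofactor gene, had 20.3%, 23.6%, 25.2%, 27.3% and 30.6% in paternal HF and 13.3%, 14.9%, 16.4%, 17.4% and 21.9% in paternal C offspring. A single paternal C animal, 2HFB, reached into the paternal HF range (limma adjusted p = 0.235, exact permutation p = 0.0159). Intron 2 of 22 of Cux2, a homeobox gene of neuronal differentiation, averaged 5.02% ± 0.881 against 2.87% ± 1.01. Intron 6 of 16 of Ebf3, which encodes a factor of neuronal differentiation, averaged 9.43% ± 1.18 against 6.81% ± 1.75 (SD, n = 5 each). Lhx5, a LIM-homeobox gene of the developing hypothalamus, was chosen after the values were seen. It had regions in introns 2, 3 and 4 of 4, each higher, by 4.62, 2.10 and 1.38 points, all with overlapping groups. These were 2.81 and 1.33 points without 22HFR for introns 2 and 3, and 0.627 points without 24HFB for intron 4. The 5 lower regions of the list were named for Lhx9, Sim1, Tcf7l1 and Foxn3. The Lhx9 regions differed by −1.96 and −1.82 points, Sim1 by −2.17, Tcf7l1 by −1.47 and Foxn3 by −0.953 points.

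Wnt, Notch, BMP and FGF genes (66) had 11 regions at 8 genes, 7 higher and 4 lower, with a median difference of 1.79 points. In intron 3 of 5 of Wnt7b, a Wnt ligand gene of the developing brain, levels ranged from near 0 to over 60% within one intron. The region at 126458544 on chromosome 7 averaged 68.2% ± 7.75 against 60.5% ± 3.41, the one at 126460331 averaged 12.8% ± 2.43 against 11.03% ± 1.59, and the one at 126464846 averaged 1.20% ± 0.926 against 3.94% ± 2.83 (SD, n = 5 each). Without 24HFB the difference of the first, 7.68 points, was 4.57 points, and that of the second, 1.79 points, was 0.840 points. The region named for Fgfr3, a fibroblast growth factor receptor gene that is also on the list of astrocyte and tanycyte markers, averaged 60.6% ± 5.29 against 53.3% ± 8.92 (SD, n = 5 each), a gap of 7.31 points that was 4.32 points without 4HFB.

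Regulators of small GTPases (75) had 8 regions at 8 genes, 4 higher and 4 lower, with a median difference of −0.27 points. Intron 7 of 14 of Sipa1, which encodes a Rap GTPase-activating protein, averaged 20.3% ± 4.85 against 13.2% ± 3.6. The region named for Arhgap22 averaged 91.3% ± 1.63 against 95.5% ± 2.16, and intron 2 of 21 of Arhgef7, which encodes an activator of Rac and Cdc42, 0.640% ± 0.572 against 2.21% ± 1.32 (SD, n = 5 each). Matrix genes (65) had 6 regions, 3 higher and 3 lower, with a median difference of 0.152 points. Besides Col16a1 they were an intron of Col13a1, a transmembrane collagen gene, at 19.6% ± 4.61 against 15.8% ± 1.47, and regions of Col8a2 and Col18a1. Col8a2, a basement membrane collagen gene, had 3 regions in intron 2 of 3 at under 6% in both group means, 1 higher and 2 lower.

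Imprinted genes (49) had 8 regions at 3 genes, all 8 higher in paternal HF, with a median difference of 2.96 points. No region of the 8 reached an unadjusted limma p below 0.05. Over all 31 regions of this list, in any part of a gene, 28 were higher, with a median difference of 3.26 points. The direction was thus not particular to later introns, of which 73.7% were higher. Gnas, the gene of the stimulatory G protein alpha subunit, had 5 of the 8 later-intron regions. In intron 2 of 14, 4 regions between 172418135 and 172418920 on chromosome 3 differed by 5.34, 5.52, 2.66 and 4.16 points. The second of these, with 22 CpGs, had 21.7%, 22.3%, 30.8%, 33.8% and 38.1% in paternal HF and 20.2%, 21.4%, 24.8%, 24.9% and 27.9% in paternal C offspring. Animal 22HFR was the highest at that region, and the groups overlapped. Without 22HFR its difference was 3.33 points, and that of the fourth region was 0.972 points. The third region differed by 0.376 points without 6HFBB, and the fifth, in intron 3, by 3.26 points with all animals and 1.29 points without 22HFR. Both later-intron regions named for Igf2, the fetal growth factor gene, and the one named for Kcnk9, a potassium channel gene, were at low levels. The larger of the Igf2 differences was 2.57 points, and 1.56 points without 22HFR.

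Several lists had a single later-intron region each. Gabbr2, a GABA-B receptor subunit gene, averaged 70.1% ± 10.7 against 64.1% ± 10.8, and the gap of 5.95 points shrank to 1.96 points when paternal C animal 6HFBB was left out. Pik3r1, a regulatory subunit gene of insulin-activated PI3-kinase, averaged 2.17% ± 1.97 against 0.496% ± 0.483 (SD, n = 5 each). The Dnmt3a-named region in Dtnb averaged 30.3% ± 7.67 against 23.4% ± 5.00. Among markers of other cell types, Runx1, a blood and microglia gene, averaged 11.6% ± 1.69 against 9.59% ± 2.87 (SD, n = 5 each). No later-intron region was named for a gene of the oligodendrocyte, vessel, neuron or axon guidance lists. The part of cell makeup in these differences was not tested.

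The names with most later-intron regions were U6 (13), Gnas and Gcat (5 each). U6 is a family of spliceosomal RNA copies, so its 13 regions belonged to 6 transcripts on 6 chromosomes and are not one gene. Of them 10 were higher and 3 lower, from −5.08 to 8.25 points, and 2 lay in intron 3 of 14 of Rab11fip4 and 1 in an intron of Dnmbp. The 5 Gcat-named regions, upstream of this amino acid metabolism gene, lay in intron 2 of 3 of one unnamed transcript, 4 higher and 1 lower. The first of them had 1.63%, 3.51%, 4.31%, 5.15% and 5.29% in paternal HF and 0%, 0%, 0.408%, 0.733% and 1.65% in paternal C offspring. The groups met at 1.63% and 1.65% (limma adjusted p = 0.235, exact permutation p = 0.0159). The other higher ones averaged 2.15% to 3.21% in paternal HF, and the lower one, at 120260899, had 2.27% ± 1.05 against 4.29% ± 1.55 (SD, n = 5 each).

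Regions of one intron did not always share a direction. There were 47 introns with several regions, and of 57 neighbouring pairs within an intron 38 had the same direction and 19 opposite ones. Of the 30 pairs within 200 bases of each other 21 had the same direction. As 73.7% of the 350 regions were higher in paternal HF, unrelated pairs would also share a direction more often than not. The share to be expected of them was not computed. The neighbours at 14112328, 14112387 and 14112414 on chromosome 12, in intron 2 of 14 of an unnamed transcript, were each higher, at 24.2%, 35.1% and 24.5% in paternal HF against 17.1%, 27.4% and 17.98% in paternal C offspring. In intron 2 of 14 of Gse1, a chromatin-associated protein gene, 3 regions were each higher, by 4.21 to 7.96 points. Regions of one intron that abut went either way. The abutting pairs at Egfl7, Fcgr2a and Gnas (from 172418135) shared a direction, and those at Sec62, Tle3 and Fkbpl did not. In intron 2 of 19 of Tle3, a Groucho corepressor gene, the region from 66298068 was higher by 1.78 points and the one that begins where it ends, at 66298466, lower by 1.48 points. The pair named for Fkbpl, in intron 35 of 40 of an unnamed transcript, differed by −3.90 and 3.88 points. In intron 4 of 26 of Kif1b the 3 neighbours differed by 0.936, 0.672 and 1.69 points, and the last by −0.061 points without 22HFR.

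The animals did not contribute alike. Of the 93 regions followed singly, 49 had a difference that shrank by over 1.5 times or changed sign when 1 animal was left out, and that animal was 22HFR at 14 of them. Of the 350 regions, 22HFR had the highest level of the 10 animals at 94, and 10 to 52 had each other animal as the highest. The lowest level was most often that of 4HFB (78 regions) or 2HFB (62), both paternal C. These 2 columns also held most of the levels listed at exactly 0, with 38 and 29 of 130. Of 3500 levels 2 were missing, both in 4HFB. The part of read depth in these zeros was not tested, as depth is unknown.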

How the data were processed

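Libraries were made with a Zymo-Seq RRBS kit from arcuate nucleus DNA, per the labels' protocols. The submitters' processing notes name Trim Galore, Bismark and Bowtie. Regions were called with metilene, per the file headers. The deposited table held, per region, the methylation fraction averaged per animal, group mean fractions, their difference (a signed score by the authors), p-values and q-values, the number of CpGs, and annotation. Not given in the sources used here were the build, any coverage filter, the settings of metilene and whether starts count from 0 or 1. Fractions were multiplied to percent. Without depth, precision could be judged from the spread between animals alone. Column headings placed each animal in a group but matched no sample title, so they served as 5 unnumbered replicates per group.

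Levels of all 8957 regions were tested in R 4.3.3 with limma 3.58.1 (empirical Bayes, mean-variance trend, Benjamini-Hochberg at 0.05), checked on simulated data. Named regions also got two-sided exact permutation tests over 252 arrangements in Python 3.11.15 with SciPy 1.17.1 and pandas 2.3.3. These exact p-values are not adjusted for the number of regions. Many regions were named on these same values, so their exact p is a description and not support. Plots used matplotlib 3.10.9. Of 275 gene names 235 matched a RefSeq symbol and 3 a synonym.

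The rule named 55 regions: those with q below 0.05, the 8 higher and 8 lower with largest difference and no overlap, the 5 smallest limma p, the 3 names with most regions, 1 or 3 regions of each of 17 gene lists (3 where a list had at least 6), and the highest and lowest level (Prkcq, at 97.5%, and Phc2, at 0.816%). Of these, 2 are not reported here. A further 40 were added after the values were seen. The members and lists were chosen with earlier results of these data known. Alternatives were a logit scale, other variance models, CpG, distance and intron minimums, complete values, other p-values, and leaving out each animal.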

Additional observations from a re-analysis of the deposited data

Results flagged for a closer look

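In 190 groups of 5 animals (named regions, and the mean and median over the 350 regions) 12 had an animal far from the others by Dixon's criterion, which chance alone meets in about 1 group of 20. Paternal HF animals stood apart at 5 regions. They were Cux2, where 22HFR lay at 3.46% and the others at 5.19% to 5.54%, and the U6 region at 27754979, where 26HFB lay at 1.91% and the others at up to 0.278%. At Ppard 28HFB lay at 11.7% and the others at 5.94% to 7.37%. At the Col8a2 region at 144321673 26HFB lay at 5.83% and the others at 2.89% to 3.69%. At the Kif1b region at 165982556 22HFR lay at 10.1% and the others at 0.312% to 2.24%.

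Paternal C animals stood apart at 7 regions. Animal 4HFB was above the others at Hap1 (70.2%, others 43.3% to 49.1%), Phc2 (4.85%, others up to 1.302%), the Mir153 region at 145002823 (6.41%, others 0.942% to 1.40%) and the U6 region at 31536409 (4.67%, others 0.370% to 1.5%). Animal 2HFB was above them at the Dnmt3a-named region (32.0%, others 19.2% to 22.9%) and below them at the AABR07035427.1 region at 14112328 (12.3%, others 17.9% to 18.7%). Animal 6HFB was above them at Col16a1 (54.6%, others 42.0% to 44.4%).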

How the results depend on the processing

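No later-intron region passed limma on a logit scale with an offset of 0.01, without the trend, with robust variance, with at least 15 CpGs, with complete values or without any single animal (0 calls in each; smallest adjusted p from 0.134 to 0.293). With Benjamini-Hochberg adjustment over the deposited Mann-Whitney p-values, 187 of the 350 passed (53.4%, beside 58.3% of all regions). Their smallest adjusted p was 1e-09, while an exact test of 5 against 5 animals cannot go below 0.00794. The deposited p-values thus cannot rest on a single level per animal, as limma does here, and the 187 are not comparable with its calls. What values they were computed on is not given and was not tested. The share higher in paternal HF was 73.1% to 74.3% when each animal was left out. It was 79.55% with at least 15 CpGs (44 regions) and 81.5% with an absolute difference of at least 2 points, where fewer regions were counted. No share over all regions is set beside either value, so neither can be read against a background. The difference in mean level was 1.74 to 2.33 points when each animal was left out, and 1.18 points as a difference of medians. A deposited q below 0.01 was found at 0 regions, beside 0.502% of all, and one below 0.1 at 3 (0.857%), beside 1.04% of all. With at least 15 CpGs 2 of 44 regions (4.55%) had groups without overlap, beside 6.79% of the 1635 such regions in all. Averaging 22HFB with 22HFR and 6HFBB with 6HFB, pairs that share a number and may be litter mates (an alternative chosen after seeing the data), gave 0 limma calls, 74% and 2.04 points. Of 1023 recomputed differences at 93 named regions 1 changed direction, that of Kif1b at 165982556, at −0.0615 points without 22HFR (up to 2.38 points without 28HFB). No paired analysis was possible because the columns carry no replicate number. Unknown depth limits what a single low level can show.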
